A study of Mus musculus with 4 samples.

Results

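The genes described here are 36 markers of blood and lymphatic endothelium, the cells that line vessels, read on 4 arrays of mammary gland RNA. They were taken as a list: pan-endothelial genes, angiogenic receptors and their ligands, endothelial transcription factors, selectins and lymphatic genes. All 36 had a probe among the 18948 named genes on the arrays, and each gene is represented by its brightest probe. The glands came from 13-week-old female mice, and every animal carried Δ16HER2, a splice form of the human receptor HER2 that drives mammary tumours. They were collected before tumours had formed. The labels give 2 groups, 2 arrays as wild type for stathmin (WT 1 and WT 2) and 2 arrays as stathmin knockout (knockout 1 and knockout 2). No gland without the transgene was included, and the labels name neither the promoter behind Δ16HER2 nor the animals behind each RNA. The p-values below therefore measure only the spread between these samples, which may be technical.

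Endothelial cells hold the vessel wall together with junction proteins such as VE-cadherin and sense the growth factors VEGF and angiopoietin through receptor tyrosine kinases. Sprouting begins when tip cells, which express Dll4, Apln and Angpt2, lead a new branch and restrain their neighbours through Notch. Lymphatic endothelium is set apart by the transcription factor Prox1, the receptor Flt4 and the hyaluronan receptor Lyve1. In the mammary gland, vessels run through the fat pad around the ducts and supply both fat and epithelium.

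Values are levels, meaning log2 of the background-subtracted signal minus log2 of the array's 75th percentile, so a level of 0 is the signal at that percentile. They are comparable between arrays for 1 gene and not between genes. Testing required a signal well above background on the 2 arrays of either group, which 33 of the 36 genes had, among 13202 genes tested in all. The label of the list held for blood vessels, although the labels call the tissue type epithelial. Pecam1, Cdh5, Kdr, Tek and Vwf were well above background on all 4 arrays. So were 32 of the 36 genes in all, the lymphatic genes Lyve1, Pdpn and Mmrn1 among them, and 12162 of the 18948 named genes. The label held less well for lymphatic vessels. Prox1 and Flt4 were each well above background on 1 array of either group and were not tested. Of the selectins, Sele was well above background on none and was not tested either.

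Of the 75th-percentile signals, the lowest was 144 and the highest 291, and 54.7% to 66.2% of probe spots were well above background. Both probes of Stmn1, which encodes stathmin, were read. The brighter had signals of 9222 and 1740 in the wild type and 6865 and 1621 in the knockout, so on it the groups overlap. The dimmer had 87.6 and 13.8 against 5.57 and 4.84, lower in the knockout, but was well above background on WT 1 alone. The arrays are called by their labels. Fibroblast markers read lower on both knockout arrays for 7 of 8 tested genes, or 87.5% against 17.7% of all tested genes. Their median log2 fold change was -0.54, and luminal epithelial markers had a median of -0.36 over 10 genes. On knockout 2, lymphocyte and lymph node markers stood far above the other arrays, with a mean level of the 4 lymph node stroma markers of 1.69 there against -1.37, -2.28 and -2.11 on WT 1, WT 2 and knockout 1. In RNA from whole tissue, fewer cells of a type and less RNA per cell cannot be told apart.

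Upstream sequence is shown for 5 genes on which the results turn, with Notch4 as a gene that barely varied. Each run is the 250 bases before the annotated start, 5′ to 3′ on the gene's strand, from RefSeq (GRCm38.p6): Kdr at chr5:75978456-75978705 (minus strand), Notch4 at chr17:34564045-34564294 (plus), Apln at chrX:48034854-48035103 (minus), Dll4 at chr2:119325534-119325783 (plus) and Mmrn1 at chr6:60944067-60944316 (plus). Capitals mark matches on either strand to 5 searched motifs. These were the ETS motif AGGAAG, its longer form CAGGAAG, the RBPJ site TGGGAA of Notch signalling, the SOX site ACAATG and the hypoxia response core ACGTG. Shorter or variant forms, such as GGAA alone for ETS, were not searched or marked.
Kdr: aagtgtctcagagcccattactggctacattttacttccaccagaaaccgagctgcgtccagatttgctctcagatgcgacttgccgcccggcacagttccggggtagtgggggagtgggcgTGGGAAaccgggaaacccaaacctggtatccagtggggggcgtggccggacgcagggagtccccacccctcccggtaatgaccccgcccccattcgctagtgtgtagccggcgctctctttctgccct
Notch4: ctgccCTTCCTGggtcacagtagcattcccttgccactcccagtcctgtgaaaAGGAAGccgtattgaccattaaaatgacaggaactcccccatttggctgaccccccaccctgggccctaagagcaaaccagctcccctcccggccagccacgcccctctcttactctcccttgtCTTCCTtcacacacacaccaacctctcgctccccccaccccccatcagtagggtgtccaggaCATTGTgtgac
Apln: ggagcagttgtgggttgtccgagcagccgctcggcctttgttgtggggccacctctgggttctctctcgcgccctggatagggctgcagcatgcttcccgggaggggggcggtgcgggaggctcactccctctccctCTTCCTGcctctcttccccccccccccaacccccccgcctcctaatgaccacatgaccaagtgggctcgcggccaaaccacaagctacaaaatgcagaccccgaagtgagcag
Dll4: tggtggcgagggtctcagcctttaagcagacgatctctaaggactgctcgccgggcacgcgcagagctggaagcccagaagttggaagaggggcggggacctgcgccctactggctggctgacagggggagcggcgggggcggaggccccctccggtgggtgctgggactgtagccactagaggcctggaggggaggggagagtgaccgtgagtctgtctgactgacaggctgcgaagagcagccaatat
Mmrn1: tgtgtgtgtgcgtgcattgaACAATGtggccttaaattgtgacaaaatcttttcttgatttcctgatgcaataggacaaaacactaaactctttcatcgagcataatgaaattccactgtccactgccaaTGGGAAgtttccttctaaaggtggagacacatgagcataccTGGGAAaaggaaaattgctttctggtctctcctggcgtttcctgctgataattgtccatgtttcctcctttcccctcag

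The table of upstream sequences held 19 of the 36 genes. ETS factors such as Erg and Fli1 are known regulators of endothelial genes, and AGGAAG stood in the window of 10 of the 19 genes (52.6%), against 29.2% of all 27025 genes with a window. Its longer form, which overlaps it by design, stood in 6 of 19 (31.6%) against 10.5%. Notch4 and Egfl7 had 3 matches each to AGGAAG, Eng, Emcn and Flt1 had 2 each, and Apln had 1. The other motifs were closer to or below the share of all genes. TGGGAA stood in 5 of 19 windows (26.3% against 21.5%), including 1 match in Kdr and 2 in Mmrn1. ACAATG stood in 2 of 19, Mmrn1 and Notch4 (10.5% against 10.99%), and ACGTG in 1 of 19, Pdpn (5.26% against 16.6%). In the Dll4 window none of these motifs was found, although shorter ETS forms such as GGAA do stand there. A match is a run of letters and says nothing about binding in these glands.

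Across the endothelium as a whole, the knockout arrays could not be separated from the wild-type arrays. Fold changes are given as knockout minus wild type on the log2 scale, with limma's moderated standard error and 2 arrays per group. None of the 33 genes passed an adjusted p of 0.05 in limma (0% of the 13202 genes tested did), and adjusted p ran from 0.936 to 0.999. At an unadjusted p under 0.05 there was 1 gene, Nos3, which is 3.03% of the 33 against 3.54% of all tested genes. Of the 33 fold changes 15 were positive and 18 negative, with a median of -0.028 against -0.0060 for all tested genes, and none reached a 2-fold change, as 3.11% of all tested genes did.

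For 3 genes the knockout pair was wholly higher than the wild-type pair. These were Icam2, Notch4 and Nos3, or 9.09% of the list, where 17.8% of all tested genes did so. For 5 genes it was wholly lower. These were Cdh5, Kdr, Ptprb, Erg and Pdpn, or 15.2%, where 17.7% of all did so. These shares are at or under the background, so they are no sign of a shift of the vessel genes. Scaling by the array median put the median of all genes at 0.19, and the split became 5 above and 2 below (21.2% and 7.07% of all genes). With normexp background correction it was 5 above and 3 below (19.6% and 15.3% of all genes), against 15.2% and 9.09% of the list. In 7 genes the fold change was larger than the gap between arrays within both groups, which is 21.2% against 22.4% of all tested genes. The width of the 95% intervals sets what these arrays can show: for 17 of the 33 genes the interval lay wholly inside a 2-fold change either way, and for the other 16 genes it did not.

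**Figure D1:**
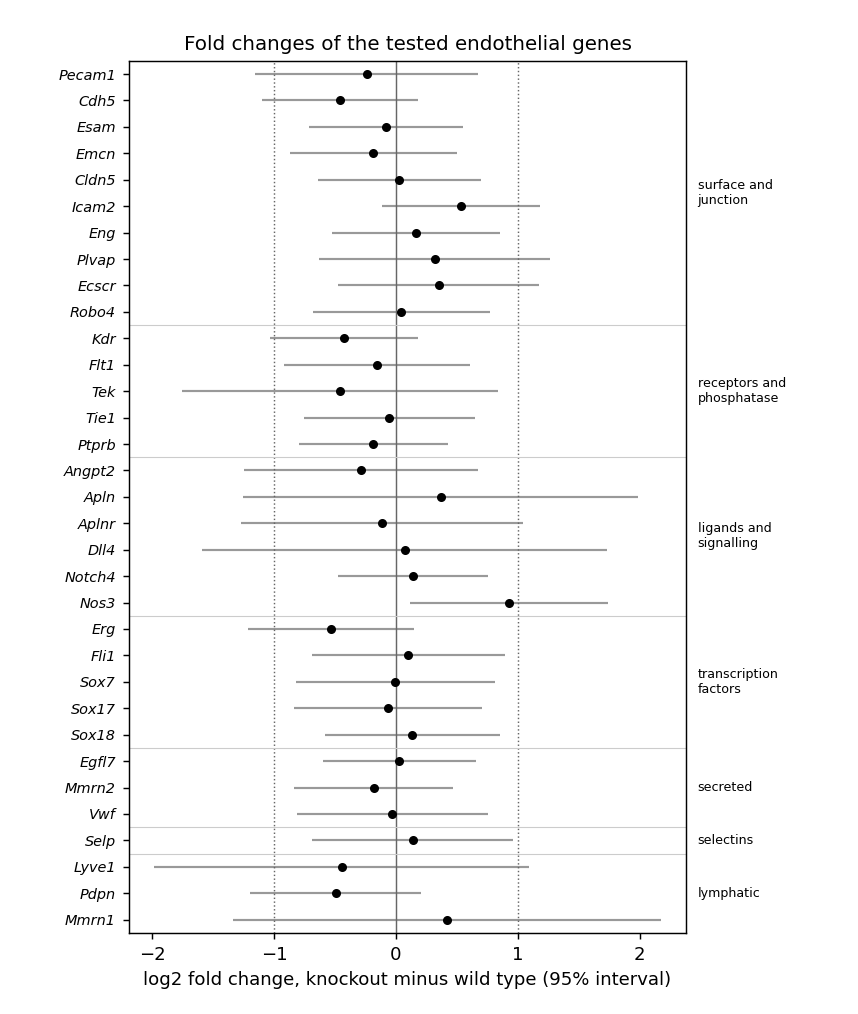
Log2 fold changes (knockout minus wild type, horizontal axis) of the 33 tested endothelial genes, ordered by role, as points with limma's 95% intervals from 2 arrays per group. Solid and dotted lines mark no change and a 2-fold change. Only the interval of Nos3, from 0.12 to 1.74, leaves out 0, before any adjustment.

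Of the 10 junction and surface genes of the vessel wall, 5 had a range over the arrays of less than 0.5 on the log2 scale. They were Cldn5, Esam, Emcn, Robo4 and Eng, or 50% of the 10, where 36.5% of all tested genes had such a range. Cldn5, the main claudin of endothelial tight junctions, read 2.64 and 2.99 on WT 1 and WT 2 and 2.77 and 2.92 on knockout 1 and knockout 2. The adhesion molecule Esam read 2.06 and 2.30, then 2.15 and 2.04 in the same order. In both genes the groups overlapped and the 4 arrays spanned 0.35 and 0.26 on the log2 scale, with fold changes of 0.028 (95% interval -0.64 to 0.69) and -0.081 (-0.71 to 0.55). Emcn, a sialomucin of capillaries and veins, had a fold change of -0.18 (-0.87 to 0.50), and Robo4, a receptor that stabilises vessels, 0.045 (-0.68 to 0.77). For Robo4 the value was -0.36 with normexp background correction. Eng, the TGF-beta co-receptor endoglin, had 0.17 (-0.52 to 0.86), and Ecscr, a regulator of endothelial migration with a wider range of 0.81, had 0.35 (-0.47 to 1.17).

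Pecam1 and Plvap varied more, without separating the groups. Pecam1, the adhesion molecule CD31 that is the usual stain for vessels, read 0.41 and 0.66 in the wild type and -0.13 and 0.72 in the knockout. Knockout 1 alone was low, and the fold change of -0.24 ± 0.36 (SE) became 0.19 without it. Plvap, which forms the diaphragms of fenestrated capillaries, read 2.48 and 3.29 in the wild type against 2.96 and 3.44, a fold change of 0.32 ± 0.37. Its lowest array was WT 1, and without that array the value was -0.088.

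Cdh5 and Icam2 went opposite ways. Cdh5, the VE-cadherin of adherens junctions, read 2.60 and 2.30 in the wild type and 2.04 and 1.95 in the knockout. All of its knockout values lay below all of its wild-type values, with a fold change of -0.46 ± 0.25 (SE; 95% interval -1.10 to 0.18; limma adjusted p = 0.936). A second, dimmer Cdh5 probe gave -0.64, with levels of -1.16, -2.08, -1.52 and -3.01 across the arrays, so on that probe the groups overlapped. Icam2, an adhesion molecule that leukocytes bind, read 2.47 and 2.62 against 2.93 and 3.23, a fold change of 0.54 ± 0.26 (-0.11 to 1.18; limma adjusted p = 0.936). Icam2 was highest on knockout 2, the array with high lymphocyte markers, and platelets and lymphocytes also express it. Without knockout 2 its fold change was 0.39, and the part of those markers in it was not tested.

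All 5 genes of the group of angiogenic receptors and the phosphatase Ptprb had negative fold changes, with a median of -0.19. Of all 13202 tested genes, 6697 were negative. Flt1, Tie1 and Ptprb turned positive under median scaling, and Flt1, Tie1 and Tek did so with 1 array left out. Kdr encodes VEGF receptor 2, the main signalling receptor for VEGF-A. It read 2.92 and 2.80 in the wild type and 2.48 and 2.39 in the knockout. The 2 arrays of either group were closer to each other than to the other group, with a fold change of -0.43 ± 0.24 (SE; 95% interval -1.03 to 0.18; limma adjusted p = 0.936). Ptprb, the phosphatase VE-PTP that restrains Tek and VE-cadherin signalling, read 3.16 and 3.19 against 3.07 and 2.91. Its groups did not overlap either, although the fold change was only -0.19 ± 0.24 and became 0.0087 under median scaling.

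Flt1, VEGF receptor 1, which also acts as a trap for VEGF, read 4.30 and 4.64 in the wild type and 4.07 and 4.57 in the knockout. Its fold change was -0.15 ± 0.30 (SE) on the brighter probe and -0.16 on the other, and the groups overlapped. Tie1, an orphan receptor that modulates Tek, had -0.053 ± 0.28.

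Tek set 1 array apart. Tek, the receptor Tie2 for angiopoietins, read -0.18 and -0.29 in the wild type and 0.041 on knockout 1, but -1.43 on knockout 2. Knockout 2 was thus 1.14 below the next lowest array, and the fold change of -0.46 ± 0.51 (SE) was 0.28 without knockout 2 and -1.19 without knockout 1. The apelin receptor gene Aplnr followed the same order on the knockout arrays, with 0.55 and -0.020 in the wild type, 0.72 on knockout 1 and -0.41 on knockout 2. A second Aplnr probe, dim and well above background on 2 arrays, did not, with -3.74, -3.82, -3.71 and -3.57 across the arrays. Its fold change was 0.14, against -0.11 on the brighter probe. Over the whole list, knockout 2 was the lowest array for 11 of 33 genes (33.3% against 22.4% of all tested genes) and the highest for 7 (21.2% against 25.7%). The mean level of the luminal epithelium list was also lowest on knockout 2, at 0.28 against 0.80 to 1.06 on the other arrays, with 10 of 10 markers tested. This was not particular to luminal epithelium. The basal epithelium list (-0.49 against -0.21 to 0.23) and the fibroblast list (4.07 against 4.22 to 4.67) were lowest there too. So were the mural cell genes described below (2.38 against 2.45 to 2.61), whereas the lymphocyte and lymph node lists were highest there. The part of tissue makeup in these values was not tested.

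Nos3 had the largest fold change of the list. It encodes endothelial nitric oxide synthase, which relaxes vessels and is induced by VEGF and flow. Processed signals were 308 and 344 in the wild type and 1259 and 515 in the knockout, or levels of 0.69, 1.25, 2.11 and 1.69. The groups did not overlap, and knockout 1 was the highest. Of the 7 adipocyte markers read on all 4 arrays, 5 were likewise lowest on WT 1 (71.4% against 26.7% of all tested genes). On knockout 1, 4 were highest (57.1% against 25.8%), whereas 2, Adipoq and Cidec, were lowest there. The part of adipocytes in Nos3 was not tested. The fold change was 0.93 ± 0.32 (SE; 95% interval 0.12 to 1.74), a 1.90-fold difference with an interval from 1.08-fold to 3.34-fold, and it did not pass adjustment (limma adjusted p = 0.936). With 1 array left out it ran from 0.65 to 1.21. The gene had 1 probe on the array, so no second reading was to be had. Notch4, the endothelial Notch receptor, was the other signalling gene with non-overlapping groups. It read 0.69 and 0.88 against 0.91 and 0.95, a fold change of 0.14 ± 0.24.

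Genes of sprouting varied mostly between the wild-type arrays. Apln encodes the peptide apelin, Dll4 the Notch ligand of tip cells and Angpt2 the angiopoietin that loosens vessels. Apln read 0.85 on WT 1, -0.996 on WT 2, then 0.58 for knockout 1 and 0.0034 for knockout 2, a spread of 3.58-fold. A second Apln probe had the same order, with 0.82, -1.02, 0.22 and -0.54. Both probes were highest on WT 1 and lowest on WT 2, although the fold change of the second was -0.061, against 0.37 on the first.

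Dll4 read -2.85, -4.83, -3.82 and -3.73 in that order. It was not well above background on WT 2, where its signal of 5.07 lay under the lowest well-above signal of that array, 10.5, so that reading is only a bound. Angpt2 read 1.68, 0.74, 1.02 and 0.83. In all 3 genes WT 1 was highest. For Apln and Angpt2 WT 2 was lowest, with both knockout arrays between the wild-type arrays. The bound for Dll4 gives no order of WT 2 against the knockout arrays. Their fold changes were 0.37 ± 0.64 (SE) for Apln, 0.071 ± 0.65 for Dll4 and -0.29 ± 0.38 for Angpt2, all smaller than the gap within the wild-type group. The sign for Apln depended on WT 1 and WT 2: it was 1.29 without WT 1 and -0.55 without WT 2. The Dll4 fold change rests on the WT 2 bound, so its sign is not set. Only the value without WT 2, -0.92, leaves that bound out. With normexp background correction, Dll4 gave -0.28. Genes of dividing cells were also highest on WT 1 and lowest on WT 2 for 7 of 8 tested markers of 10, and the list had mean levels of 0.57, -1.49, -0.0018 and -1.018 across WT 1, WT 2, knockout 1 and knockout 2. Whether more dividing tissue and sprouting genes go together here was not tested, since 4 arrays give no correlation. The 3 genes were grouped after their values were seen, so their shared peak on WT 1 is a description.

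**Figure D2:**
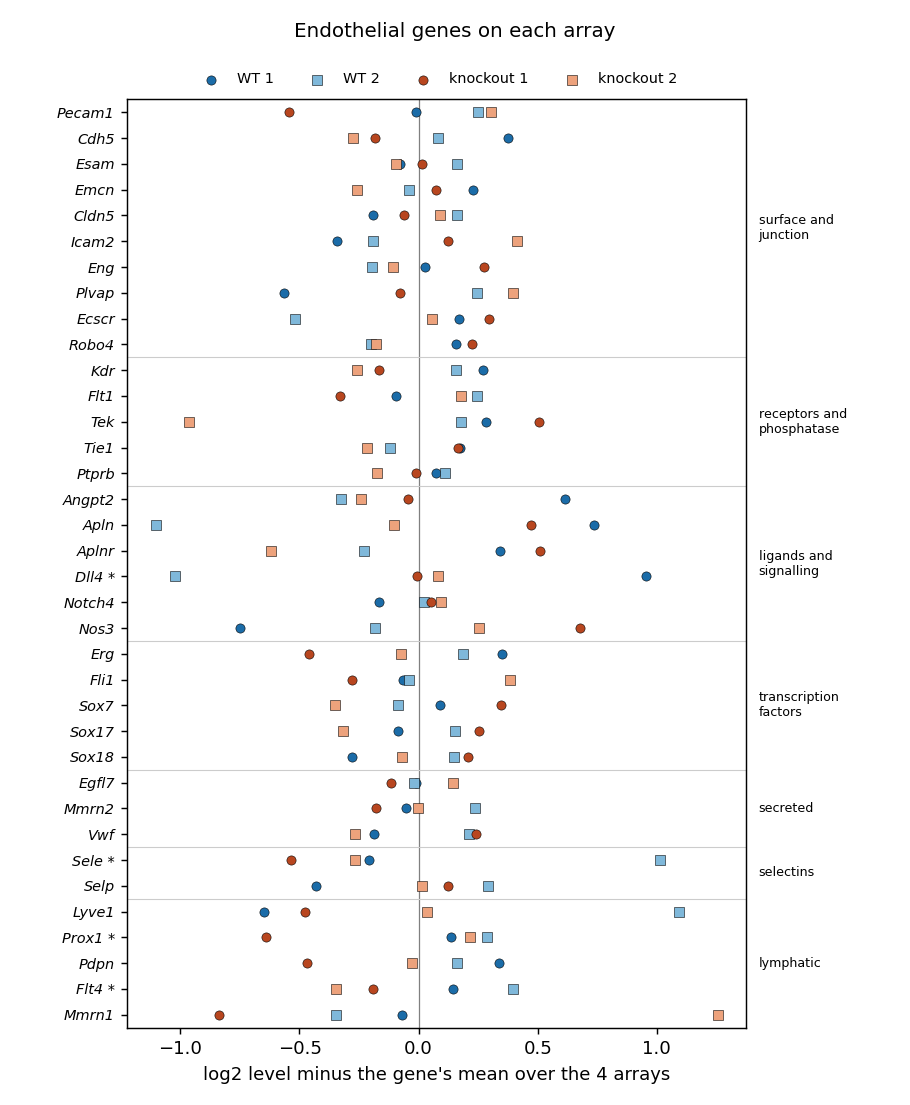
Level of each of the 36 endothelial genes on each array, as log2 level minus that gene's own mean over the 4 arrays (horizontal axis), with wild-type arrays in blue and knockout arrays in orange. An asterisk marks the 4 genes not well above background on every array. Esam, Cldn5, Notch4 and Egfl7 lie close to 0, Apln and Dll4 are spread by the wild-type arrays, and Tek, Lyve1 and Mmrn1 each have 1 array apart.

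Transcription factors of endothelium showed small differences, of which Erg was the largest. Erg, an ETS factor needed for vessel integrity, was dim and read -2.72 and -2.89 in the wild type and -3.53 and -3.14 in the knockout. Its groups did not overlap, and its fold change was -0.53 ± 0.27 (SE; 95% interval -1.21 to 0.15; limma adjusted p = 0.936). After quantile normalization the value was -0.35. Fli1, the related ETS factor that blood cells also express, read 1.27, 1.30, 1.06 and 1.72 and had 0.10 ± 0.31, or -0.21 on its other probe. It was highest on knockout 2, where the mean level of 8 T cell markers was 0.25 against -3.51 to -3.23 on the other arrays. Cd2, Cd3e and Cd3g of these markers qualified for testing only through the knockout group. The part of blood cells in Fli1 was not tested.

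The SoxF factors Sox7, Sox17 and Sox18, which act together in arterial and lymphatic fate, had fold changes of -0.0051 ± 0.32 (SE), -0.064 ± 0.30 and 0.13 ± 0.28. Sox7 read -0.28 and -0.45 against -0.025 and -0.72, and Sox17 read -0.35 and -0.11 against -0.0082 and -0.58. Both were highest on knockout 1 and lowest on knockout 2, as Tek was. A further Sox17 probe gave -0.56, with -1.11 on knockout 2 against -0.20 to 0.013 on the other arrays, and its dimmest probe gave 0.046. Sox18 read 1.30, 1.73, 1.78 and 1.51, with overlapping groups.

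Egfl7, Mmrn2 and Vwf are secreted proteins, and their levels spanned 0.26, 0.42 and 0.51 over the arrays. Egfl7, which guides endothelial cells and hosts miR-126, read 4.13 and 4.12 in the wild type and 4.03 and 4.29 in the knockout, a fold change of 0.029 ± 0.25 (SE; 95% interval -0.60 to 0.66). Mmrn2, a matrix protein that binds VEGF, had -0.18 ± 0.26, and Vwf, the clotting factor stored in endothelial granules and platelets, had -0.028 ± 0.31. Platelet markers moved both ways (6 tested of 8), with a median range over the arrays of 0.81 against 0.62 for all tested genes, and their part in Vwf was not tested. Selp, the P-selectin of activated vessels and platelets, read -1.70 and -0.98 against -1.15 and -1.26, a fold change of 0.14 ± 0.33. Sele, the E-selectin induced by inflammation, gave signals of 3.60, 6.34, 4.37 and 2.89, which were not well above background on any array, so no fold is given.

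Among lymphatic genes, Lyve1 and Mmrn1 varied widely and stood out on different arrays. Lyve1 read 0.47 and 2.21 on WT 1 and WT 2, and 0.64 and 1.15 on knockout 1 and 2. Its dimmer probe also peaked on WT 2, with -3.09, -1.47, -3.34 and -3.80, and was not well above background on knockout 2. The fold change of the brighter probe was -0.44 ± 0.61 (SE; 95% interval -1.98 to 1.09) and that of the dimmer -1.29. Without WT 2 the brighter probe gave 0.43. Tissue macrophages also express Lyve1, and the macrophage list, with 9 of 9 tested markers well above background on all arrays, had mean levels of 0.71, 1.54, 0.62 and 0.71, so it peaked on WT 2 too. The part of macrophages in the Lyve1 reading was not tested.

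Mmrn1 had the widest range of the tested genes of the list, 4.27-fold over the arrays. It encodes multimerin 1, a protein of lymphatic endothelium, platelets and megakaryocytes. Signals were 26.6 and 16.6 in the wild type, 23.8 on knockout 1 and 55.8 on knockout 2, or levels of -2.85, -3.12, -3.61 and -1.52. Knockout 2 was thus far above the others, and the fold change of 0.42 ± 0.69 (SE) was -0.63 without it. Lymph node stroma markers (4 tested of 6) and T cell markers (8 of 8) were highest on the same array for 3 of 4 and 7 of 8 genes. So were 3 of 6 platelet markers, as were 25.7% of all tested genes. Of these markers, Cd2, Cd3e, Cd3g and the platelet gene Treml1 qualified for testing only through the knockout group, which favours a peak there. The part of lymph node tissue or platelets in the Mmrn1 reading was not tested.

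Pdpn, podoplanin, marks lymphatic vessels and is also made by fibroblasts, lymph node stroma and basal epithelium. It read -2.25 and -2.43 in the wild type and -3.06 and -2.62 in the knockout, with no overlap between groups and a fold change of -0.49 ± 0.28 (SE; 95% interval -1.20 to 0.21; limma adjusted p = 0.936), or -0.39 on its other probe. Fibroblast markers were lower on the same arrays, as given above, and their part was not tested. Prox1 read -3.67, -3.52, -4.45 and -3.59, and Flt4, the receptor for the lymphatic growth factor VEGF-C, read -3.27, -3.02, -3.61 and -3.76. With so few arrays above background, these readings have no order. Over the 3 tested lymphatic genes the median fold change was -0.44, and it was 0.28 without WT 2.

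**Figure D3:**
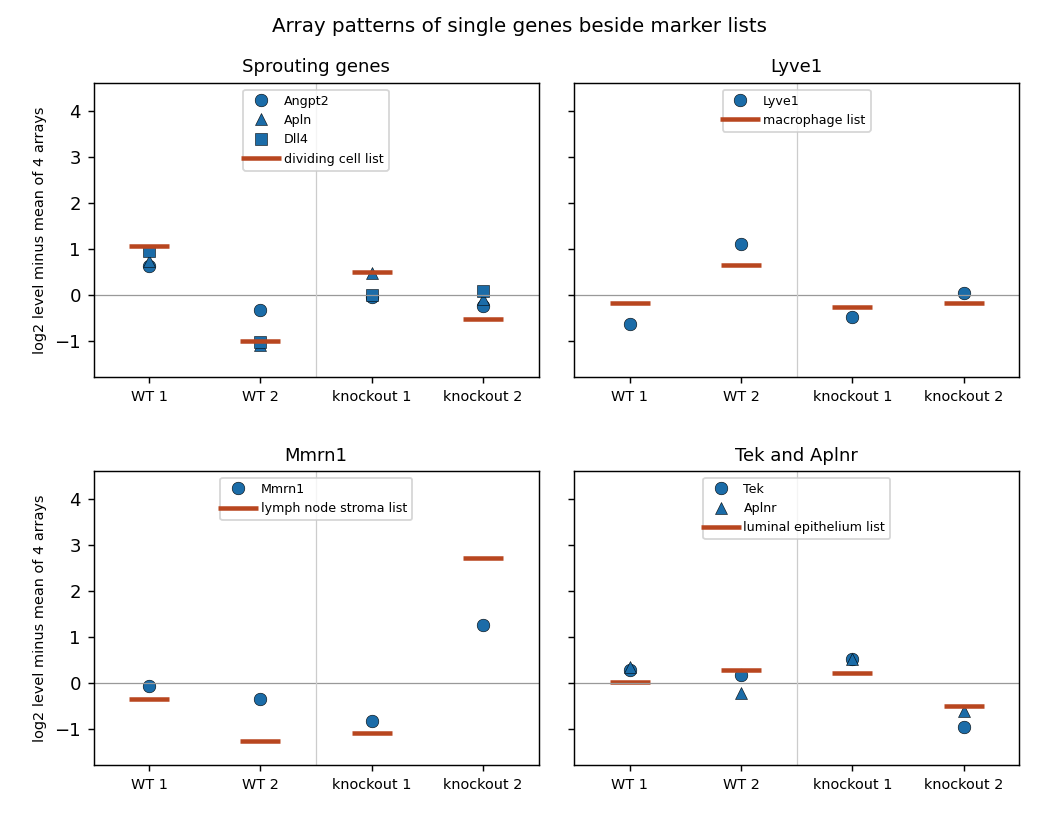
The panels set single endothelial genes (blue points) beside the mean of a marker list (orange bars), each as log2 level minus its mean over the 4 arrays. Apln, Dll4 and Angpt2 and the dividing cell list are highest on WT 1, Lyve1 and the macrophage list on WT 2, and Mmrn1 and the lymph node stroma list on knockout 2, while Tek, Aplnr and the luminal epithelium list are lowest on knockout 2. Genes and lists were paired after their values were seen. The basal epithelium and fibroblast lists, not drawn, were also lowest on knockout 2.

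Ligands and co-receptors of the same pathways were read from a list of their own. Of the 12 tested genes of this list of 15, none passed the adjusted test or had an unadjusted p under 0.05 in limma, and the median fold change was -0.042. Groups did not overlap for 2 genes, both higher in the knockout (16.7%, against the 17.8% of all genes). Vegfa, the main ligand of Kdr, read 3.14 and 3.15 in the wild type and 3.61 and 3.22 in the knockout, a fold change of 0.27 ± 0.26 (SE) that was -0.038 when all its probes were averaged. Vegfb, a ligand of Flt1, had 0.52 ± 0.32, with both knockout arrays above both wild-type arrays. Vegfc, the ligand of Flt4, had -0.38 ± 0.30. The VEGF co-receptors Nrp1 and Nrp2 had -0.0076 ± 0.24 and -0.081 ± 0.26, and Angpt1, the activating ligand of Tek, had -0.012 ± 0.25.

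Notch partners and targets were mixed, with 6 of 10 tested genes of 11 positive and a median of 0.025. Notch1, the receptor that answers Dll4 but is expressed in many cell types, read 0.28 and -0.048 in the wild type against -0.53 and -0.97. Its fold change was -0.87 ± 0.29 (SE), and it did not pass adjustment (limma adjusted p = 0.936). It was the 1 gene of this list with an unadjusted p under 0.05 in limma (10% against 3.54% of all tested genes). Rbpj, the DNA-binding partner of all Notch receptors, had -0.61 ± 0.26, and Lfng, which modifies Notch, had 0.83 ± 0.44. Rbpj and Lfng, like Notch1, had groups that did not overlap. Of the 10 tested genes, 1 lay wholly above and 2 wholly below (10% and 20%, against 17.8% and 17.7% of all genes). Lfng read 0.82 on knockout 2, the array with high lymphocyte markers, and -0.34 on knockout 1. Without knockout 2 its fold change was 0.26, and the part of those markers in it was not tested.

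A further list held 40 endothelial genes. None of its 33 tested genes passed the adjusted test, and 1 had an unadjusted p under 0.05 in limma (3.03% against 3.54% of all tested genes). Of the 33, 3 lay wholly above and 7 wholly below (9.09% and 21.2%, against 17.8% and 17.7% of all genes). The median fold change was -0.062. The 3 with the smallest unadjusted p among genes with non-overlapping groups were Afap1l1, an actin-binding protein gene, at -0.64 ± 0.24 (SE), Cd34, the sialomucin of capillaries and progenitors, at -0.49 ± 0.28 and Unc5b, a netrin receptor gene, at -0.47 ± 0.30. Other lymphatic genes, 13 tested of 16, had a median of -0.23 with 4 positive. The chemokine scavenger Ackr2 had -0.60 ± 0.32, while Itga9, an integrin of lymphatic valves, had 0.42 ± 0.26 and Tbx1 had 0.71 ± 0.35. Genes of high endothelial venules, the lymph node vessels through which lymphocytes enter, had a median of -0.21 over 6 tested genes of 10. Of these, 1 lay wholly above and 1 wholly below (16.7% each, against 17.8% and 17.7% of all genes). A single gene, Fut7, which makes a selectin ligand, stood apart on knockout 2, at 1.21 against -2.05 to -3.58 on the other arrays. It was named after its values were seen, and it qualified for testing only through the knockout group. Among the others Enpp2, which makes lysophosphatidic acid, had 0.61 ± 0.29.

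Mural cells, the pericytes and smooth muscle that wrap vessels, were read through 14 tested genes of 15. Their median was -0.19, with 2 genes wholly above and 5 wholly below (14.3% and 35.7%, against 17.8% and 17.7% of all genes). Acta2, Myh11 and Tagln were among the genes wholly below. Myoepithelial cells of the gland also express these smooth muscle genes, so the list does not read mural cells alone. The part of myoepithelial cells was not tested. Cspg4, the pericyte proteoglycan NG2, had 0.64 ± 0.24 (SE), whereas the smooth muscle myosin gene Myh11 had -0.48 ± 0.24 and Gucy1a1, the subunit of the receptor for nitric oxide, had -0.51 ± 0.30. No gene of the list passed adjustment, and 1 had an unadjusted p under 0.05 in limma (7.14% against 3.54% of all tested genes). Targets of hypoxia, which induces Vegfa, had a median of -0.15 over 12 tested genes. Of these, 1 lay wholly above and 4 wholly below (8.33% and 33.3%, against 17.8% and 17.7% of all genes). None had an unadjusted p under 0.05 in limma, as 3.54% of all genes did. Adm, encoding the vascular peptide adrenomedullin, had -0.59 ± 0.29, the glucose transporter gene Slc2a1 had -0.49 ± 0.24 and the prolyl hydroxylase gene Egln3 had -0.49 ± 0.27. Vegfa, given above, had the opposite sign on its brightest probe.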

How the data were processed

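Total RNA was labelled with Cy3 and hybridised to 1-colour Agilent arrays, 2 per group. The authors deposited scanner files whose intensity values came from Agilent's Feature Extraction software (per the file headers 11.5.1.1, whereas the submitters' processing notes list 10.7.3.1), with background subtracted within each array and no step between arrays. They also deposited a table of log2 values. It matched quantile-normalized log2 signals centred on each probe's median (Pearson r from 0.99997) and served as an alternative. All arrays were scanned on 1 slide, and slide position cannot be told apart from genotype. The sample description names EOC cells, which disagrees with the other labels, and was not used.

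Control spots and outlier spots (35 to 73 per array) were left out, and no spot was saturated. Levels are log2 signals minus the array's 75th percentile over probe spots. Accessions were matched without version to RefSeq (GRCm38.p6), which named 27808 of 41174 probes. The comparison used lmFit and eBayes of limma 3.58.1 (R 4.3.3) with no covariate over 24186 probes, with Benjamini-Hochberg adjustment and a threshold of 0.05. The fit was tested on simulated data. Beyond the 36 genes, up to 3 genes per pathway list were named, those with the smallest unadjusted p among genes whose groups did not overlap, with Vegfa, Vegfc, Nrp1, Nrp2 and Angpt1. Members and lists were chosen with earlier results of these data known. The number of arrays limits the precision, and an exact permutation test of 2 against 2 cannot go below p = 0.333. The scanner files hold no mean signal, so normexp used median signals.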

Additional observations from a re-analysis of the deposited data

How the results depend on the processing

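Each result was recomputed with 14 other settings, and the cause of the differences was not tested. No endothelial gene passed an adjusted p of 0.05 under any setting. Over all genes 0 passed, and 3 did under median scaling, none of them on the list of 36. The smallest adjusted p of the list was 0.323, without knockout 1. The count with an unadjusted p under 0.05, which was 1, became 2 with normexp (Icam2 and Nos3) and with an intensity trend, 0 without the filter on dim probes and 0 with the replicate number as a block. Same-numbered arrays share only a number (correlation of deviations 0.0648), so the block says nothing about the size of Nos3. The median of the list was 0.17 under median scaling, beside 0.19 for all genes. With 1 array left out, which assumes that a lone array varies like the others, the median ran from -0.094 to 0.028, that of the lymphatic genes from -0.70 to 0.28, the count with non-overlapping groups from 18 to 23 (54.5% to 69.7% of the 33, against 63.9% to 71.6% of all genes, both directions together) and the count with an unadjusted p under 0.05 from 1 to 3. Without WT 1 those genes were Apln, Dll4 and Lyve1, and without knockout 1 they were Mmrn1 and Tek. For Dll4 the wild type then consisted of the WT 2 bound alone, so its value is not an estimate. Of 329 fold changes of the list under alternatives that kept every array, 18 turned sign, and of 132 with 1 array left out 31 did. Among these and the named pathway genes, those that turned under median scaling were, as log2 fold changes, Esam 0.11, Emcn 0.0098, Flt1 0.043, Tie1 0.14, Ptprb 0.0087, Aplnr 0.081, Sox7 0.19, Sox17 0.13, Mmrn2 0.011, Vwf 0.17, Nrp1 0.19, Nrp2 0.11, Angpt1 0.18. With normexp they were Robo4 -0.36, Tie1 0.069, Dll4 -0.28, Sox7 0.11, Sox17 0.079, Vwf 0.16, Nrp2 0.054. With all probes of a gene averaged they were Aplnr 0.014, Fli1 -0.051, Vegfa -0.038, Nrp1 0.060, Angpt1 0.021. After quantile normalization Nrp1 and Angpt1 gave 0.054 and 0.085, as they did in the authors' deposited value table. With 1 array left out, the sign turned for genes with these ranges: Pecam1 -0.66 to 0.19, Esam -0.20 to 0.039, Cldn5 -0.15 to 0.20, Eng -0.022 to 0.36, Plvap -0.088 to 0.72, Robo4 -0.16 to 0.24, Flt1 -0.40 to 0.10, Tek -1.19 to 0.28, Tie1 -0.24 to 0.14, Angpt2 -0.76 to 0.18, Apln -0.55 to 1.29, Aplnr -0.68 to 0.45, Dll4 -0.92 to 1.06, Fli1 -0.23 to 0.44, Sox7 -0.35 to 0.34, Sox17 -0.35 to 0.22, Sox18 -0.079 to 0.35, Egfl7 -0.10 to 0.16, Vwf -0.28 to 0.23, Selp -0.22 to 0.50, Lyve1 -1.32 to 0.43, Mmrn1 -0.63 to 1.47, Nrp1 -0.080 to 0.065, Nrp2 -0.22 to 0.054, Angpt1 -0.16 to 0.13. The signs of Cdh5, Icam2, Kdr, Nos3, Erg, Pdpn, Notch4 and Ecscr held under every setting. Dim genes such as Erg, Dll4, Mmrn1 and the untested Prox1 and Flt4 are limited by signal over background.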
